A study of Mus musculus with 12 samples.

Results

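The genes described here are 10 secreted inflammatory factors that epithelial cells can make: the chemokines Cxcl1, Cxcl2, Cxcl5 and Ccl20, the colony-stimulating factors Csf1 and Csf3, the interleukin-1 family cytokines Il1a and Il33, and the cytokines Lif and Tslp. They were chosen by name, as secreted factors tied to inflammation and senescence, with earlier results of these data known. All 10 were found among the 47069 genes of the deposited count table. RNA was sequenced from mouse liver cancer organoids, which are tumor cells grown as three-dimensional cultures, after the cells had been sorted by the green fluorescent protein (GFP) that reports Lgr5. There were 3 libraries in each of 4 groups, which crossed the sort gate (LGR5- or LGR5+) with treatment (none or 5-FU). The titles shorten these to Neg or Pos and Co or Tr, which the labels do not spell out and which were read with the study's design text. 5-FU (5-fluorouracil) is a pyrimidine analog that blocks thymidylate synthesis and is used as chemotherapy. Its dose and duration for these libraries are not given in the sources used here.

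Every group carried the same C57BL/6 background and the LGR5-DTRGFP+ genotype, a knock-in in which the Lgr5 promoter drives GFP together with the diphtheria toxin receptor. The study raised its organoids from tumors induced with the carcinogen diethylnitrosamine. Which organoid line these libraries came from, and whether the replicates were separate cultures, is not stated, so all p-values measure only the spread between these samples, which may be technical. Lgr5 RNA itself did not separate the sorted groups. It stood at 18.3 to 36.0 CPM (reads relative to the library's size, scaled between libraries by the TMM method) over the 12 libraries, and the log2 difference between LGR5+ and LGR5- cells was -0.17 (SE 0.23, adjusted p = 1) untreated and 0.11 (SE 0.23, adjusted p = 0.842) after 5-FU by edgeR's quasi-likelihood test. LGR5+ and LGR5- below therefore name the labelled sort gates.

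Libraries held 13750591 to 19323514 counted reads, so that 3 reads, the limit a count of 0 allows, came to 0.155 to 0.218 CPM. Mitochondrial genes took 6.93% of the reads in untreated LGR5- replicate 3 and 6.44% in 5-FU LGR5- replicate 3, and 1.47% to 3.08% in the other libraries. Epithelial markers were high, with a summed level of 4019 to 22048 CPM led by Krt18. The bile duct list, led by Krt7, summed to 1140 to 10481 CPM, and in it Sox9 stood at 157.5 to 354 CPM and Cftr at 0 to 0.505 CPM. Of the defining hepatocyte genes, Hnf4a, Ttr and Alb were at or near 0 (Alb 0.147 to 1.85 CPM), and Afp, the fetal liver protein, led the list at 9.86 to 21.1 CPM untreated and 25.6 to 54.3 CPM after 5-FU. The lung surfactant gene Sftpc reached 2617 to 17322 CPM. Other genes of the lung epithelium list were detected too, with Nkx2-1 at 43.2 to 76.2, Sftpd at 37.2 to 465 and Ager at 14.2 to 114 CPM. Lamp3 stood at 12.9 to 50.8, Sftpb at 9.55 to 29.0, Sftpa1 at 1.11 to 35.6 and Scgb1a1 at 0.115 to 64.9 CPM. The tissue identity of the cells was not tested. The pan-leukocyte gene Ptprc stood at 0.164 to 2.02 CPM and the lymphocyte list summed to 0 to 0.293 CPM.

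Chemokines of the CXC class with an ELR motif, here Cxcl1, Cxcl2 and Cxcl5, draw neutrophils through the receptor Cxcr2, and Ccl20 draws lymphocytes and dendritic cells through Ccr6. Csf1 and Csf3 sustain macrophages and neutrophils, Il1a and Il33 are alarmins that damaged epithelium releases, Lif signals through Lifr and Il6st to STAT3, and Tslp is an epithelial cytokine of type 2 immunity. Many of these genes are targets of NF-kB and belong to the secretome of senescent cells.

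After 5-FU, transcripts of Lif, Il33 and Csf1 rose in LGR5+ and in LGR5- cells, 1.92-fold to 3.50-fold. Cxcl1 rose in LGR5- cells by the test across all genes, a call that several alternatives lost, and its rise in LGR5+ cells did not pass. Ccl20, Cxcl2, Csf3, Tslp and Cxcl5 did not pass in either population, and Il1a was barely detected. No member differed between LGR5+ and LGR5- cells at an adjusted p under 0.05, untreated or treated. These are bulk measurements, in which a change in the share of cells making a transcript and a change in the RNA per cell cannot be told apart.

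Levels were first compared between genes per kilobase of annotated exon. Il33 stood highest in all groups, with mean levels of 21.2, 26.2, 40.8 and 60.9 CPM per kilobase in untreated LGR5-, untreated LGR5+, 5-FU LGR5- and 5-FU LGR5+ cells. Cxcl5 and Cxcl1 followed. In untreated LGR5- cells the levels of Cxcl5 ran from 6.04 to 23.0 and those of Cxcl1 from 6.62 to 12.7 CPM per kilobase, so these neighbours overlapped, as Cxcl5 did with Il33. Il33 also overlapped Cxcl5 and Cxcl1 in untreated LGR5+ cells (20.7 to 29.9 against highest values of 25.6 and 21.4). In 5-FU LGR5- cells it overlapped Cxcl1 (31.3 to 46.3 against 14.3 to 38.8). After 5-FU, Cxcl1 took second place with means of 25.9 and 26.1 CPM per kilobase in LGR5- and LGR5+ cells against 10.3 and 14.3 for Cxcl5. The order of these neighbours separated only in LGR5+ cells, where the lowest Cxcl1 library (18.7) lay above the highest Cxcl5 library (17.4). Lif held rank 4 in every group, from a mean of 1.07 CPM per kilobase in untreated LGR5- cells to 4.54 in 5-FU LGR5+ cells. In untreated LGR5- cells its range (0.933 to 1.29) overlapped that of Cxcl2 (0.616 to 1.11). In untreated LGR5+ cells its range (1.11 to 1.52) overlapped those of Cxcl2 (0.346 to 1.51) and Csf3 (0.296 to 1.22). Cxcl2, Csf1, Csf3, Ccl20 and Tslp shared ranks 5 to 9 in an order that changed between groups, with means from 0.327 to 1.54 CPM per kilobase, and Il1a was last. Most of their ranges overlapped, but in untreated LGR5- cells Cxcl2 lay above the ranges of Csf1, Ccl20 and Tslp. Csf1 lay above Csf3 in 5-FU LGR5- cells and above Tslp in 5-FU LGR5+ cells.

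**Figure D1:**
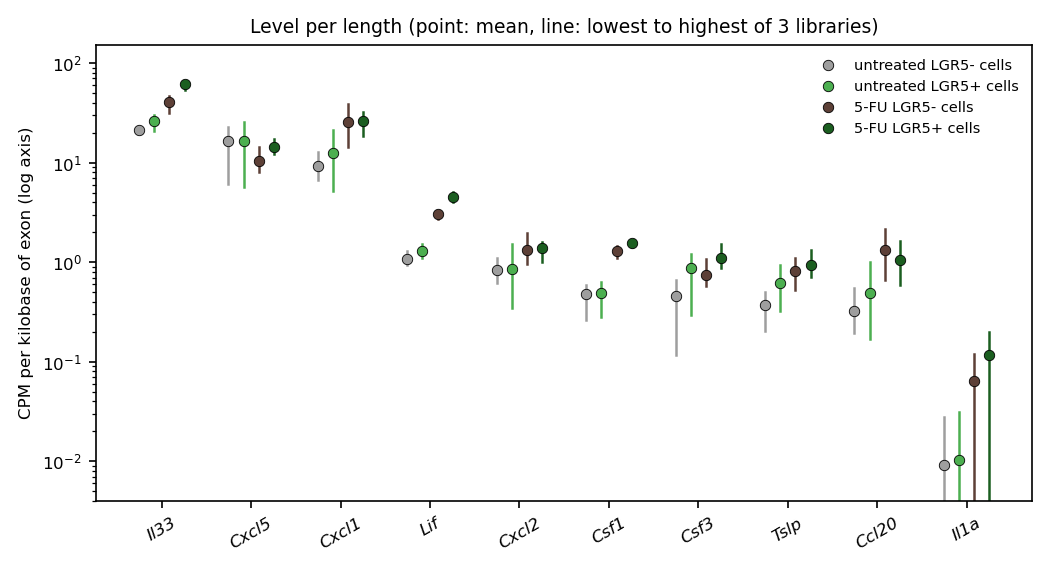
Mean level per kilobase of exon (log axis) for each gene in the 4 groups; points are means and lines run from the lowest to the highest of 3 libraries (lines of Il1a that reach 0 leave the axis). Il33, Cxcl5 and Cxcl1 stood highest, Lif held rank 4, and Il1a was last in every group.

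The neutrophil-attracting chemokines lie close together on chromosome 5 (GRCm38, GENCODE M21): Cxcl5 at chr5:90759360-90761624, Cxcl1 at chr5:90891241-90893115 and Cxcl2 at chr5:90903871-90905938, all on the + strand. Cxcl1 stood at 15.4, 23.8 and 12.4 CPM in untreated LGR5- replicates 1 to 3 and at 26.9, 45.8 and 72.8 CPM in the 5-FU LGR5- replicates. These groups did not overlap, and the highest value of all 12 libraries was 5-FU LGR5- replicate 3, one of the pair with a high mitochondrial share. In LGR5+ cells Cxcl1 stood at 21.1, 40.2 and 9.67 CPM untreated and at 35.0, 50.6 and 61.1 CPM after 5-FU. Untreated LGR5+ replicate 2 lay above 5-FU LGR5+ replicate 1, so these groups overlapped. The fitted change with 5-FU was a log2 fold change of 1.49 (SE 0.46, adjusted p = 0.0451, edgeR's quasi-likelihood test) in LGR5- cells and 1.05 (SE 0.46, adjusted p = 0.141) in LGR5+ cells. The call in LGR5- cells was lost without any 1 of 5 libraries, namely untreated LGR5- replicate 1 (adjusted p = 0.154), 2 (0.0558) or 3 (0.146) and 5-FU LGR5- replicate 2 (0.0861) or 3 (0.177), and without both LGR5- replicate 3 libraries the change was 0.89 (adjusted p = 0.385). In LGR5+ cells a call appeared without untreated replicate 2, at 1.67 (adjusted p = 0.0297), and without untreated replicate 3 the change was 0.68 (adjusted p = 0.351).

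Cxcl2 was lower than Cxcl1 throughout, at 12 to 60 reads per library, and part of its sequence (5.84% of its words of 50 bases) also occurs in Cxcl3. It stood at 1.57, 2.30 and 1.27 CPM in untreated LGR5- cells, 1.5001, 3.13 and 0.716 CPM in untreated LGR5+ cells, 2.17, 1.99 and 4.03 CPM in 5-FU LGR5- cells, and 2.08, 3.30 and 3.21 CPM in 5-FU LGR5+ cells. Treated and untreated libraries overlapped in both populations, and the log2 fold changes of 0.66 (SE 0.48, adjusted p = 0.407) in LGR5- and 0.68 (SE 0.48, adjusted p = 0.380) in LGR5+ cells did not pass the edgeR test.

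Cxcl5 was the only tested member with a negative fitted change in both populations. It stood at 37.7, 42.9 and 11.2 CPM in untreated LGR5- cells and 47.6, 33.3 and 10.6 CPM in untreated LGR5+ cells, and at 15.4, 15.03 and 27.0 CPM and 24.7, 22.8 and 32.5 CPM in the respective 5-FU groups. The untreated groups spanned the treated ones because replicate 3 was low in both. By edgeR the log2 fold change was -0.68 (SE 0.52, adjusted p = 0.432) in LGR5- cells and -0.20 (SE 0.52, adjusted p = 0.843) in LGR5+ cells. Without both untreated replicate 3 libraries, an alternative chosen after the values were seen, Cxcl5 was called lower in LGR5- cells at -1.08 (adjusted p = 0.0145). The untreated replicate 3 libraries were also the lowest of their groups for Cxcl1, Cxcl2, Ccl20, Csf1 and Csf3.

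Ccl20 (chr1:83116766-83119167, + strand) was counted by 4 to 42 reads per library. It stood at 0.787, 0.329 and 0.277 CPM in untreated LGR5- cells and at 0.941, 1.70 and 3.08 CPM after 5-FU, groups that did not overlap. In LGR5+ cells the values were 0.462, 1.41 and 0.239 CPM untreated and 0.842, 1.32 and 2.34 CPM after 5-FU, which overlapped. The log2 fold change was 2.02 (SE 0.69, adjusted p = 0.0639) in LGR5- cells, the highest fitted value of any member, and 1.09 (SE 0.67, adjusted p = 0.307) in LGR5+ cells. Neither passed edgeR's test. In LGR5- cells DESeq2 called it (adjusted p = 0.0237), as did edgeR with no filter on low counts (adjusted p = 0.0189) and without 5-FU LGR5- replicate 1 (adjusted p = 0.0400), and without both LGR5- replicate 3 libraries the change was 1.25 (adjusted p = 0.285).

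**Figure D2:**
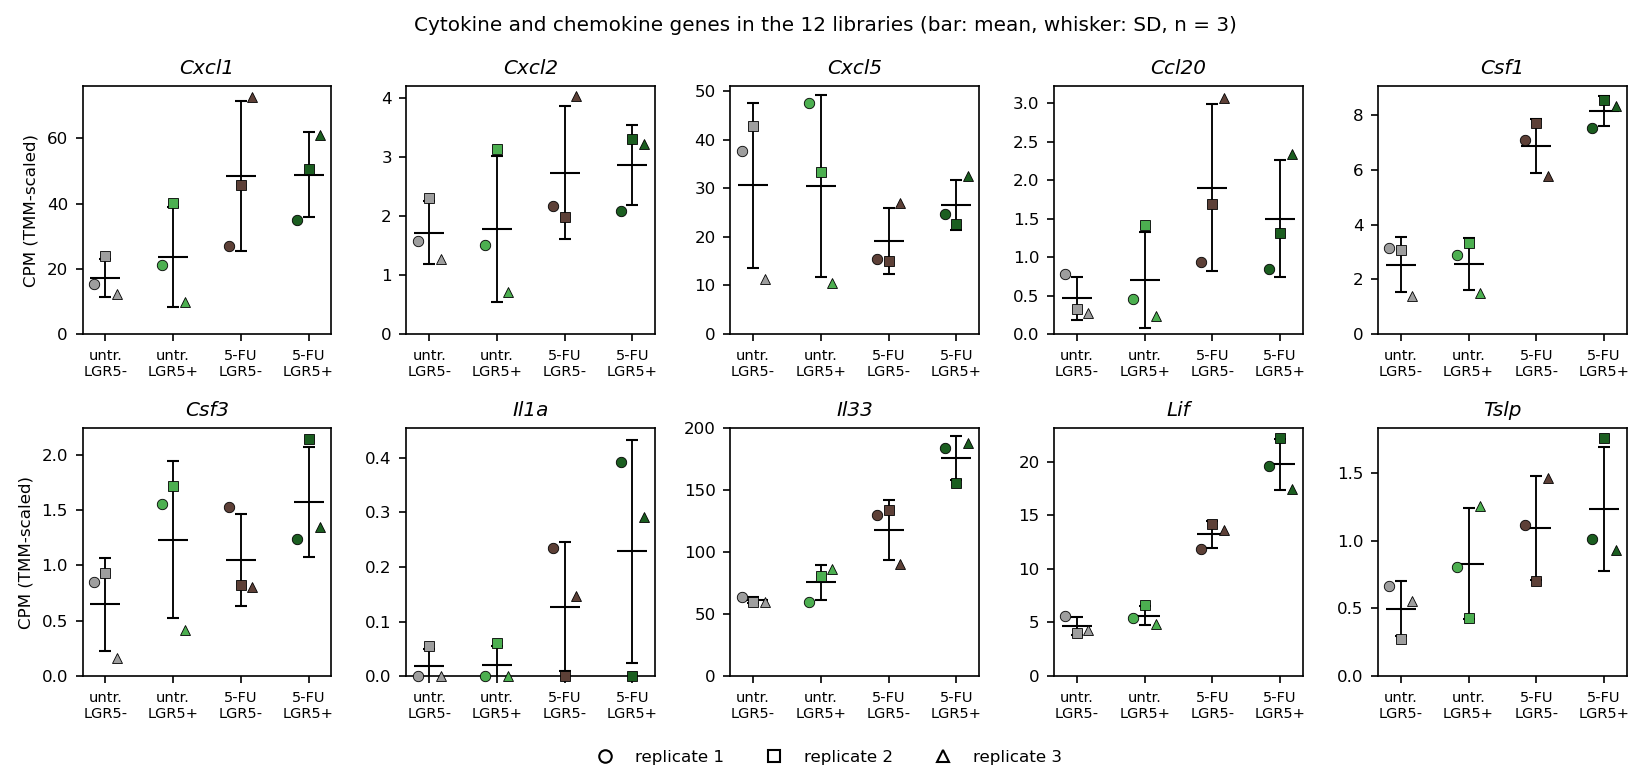
CPM (TMM-scaled, linear axes from 0) of each of the 10 genes in the 12 libraries; symbols give the replicate number, bars the mean and whiskers the SD of 3 libraries. Lif, Il33 and Csf1 lay higher in every 5-FU library than in any untreated library of the same population, whereas the Cxcl5 groups overlapped.

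Csf1, the growth factor of macrophages and their precursors (chr3:107741048-107760469, - strand), stood at 3.15, 3.07 and 1.39 CPM in untreated LGR5- cells and 2.88, 3.31 and 1.49 CPM in untreated LGR5+ cells. After 5-FU it stood at 7.11, 7.72 and 5.79 CPM in LGR5- cells and 7.53, 8.58 and 8.35 CPM in LGR5+ cells. In each population the treated libraries lay above the untreated ones. Csf1 rose 2.71-fold in LGR5- cells (95% interval 1.63 to 4.51, log2 fold change 1.44, SE 0.34, adjusted p = 0.0110) and 3.17-fold in LGR5+ cells (1.91 to 5.28, log2 fold change 1.67, SE 0.34, adjusted p = 0.00408) by edgeR's test.

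Csf3, which drives neutrophil production (chr11:98701263-98703629, + strand), was counted by 3 to 39 reads per library. It stood at 0.848, 0.932 and 0.166 CPM in untreated LGR5- cells, 1.56, 1.72 and 0.418 CPM in untreated LGR5+ cells, 1.53, 0.819 and 0.806 CPM in 5-FU LGR5- cells, and 1.24, 2.14 and 1.34 CPM in 5-FU LGR5+ cells. Treated and untreated groups overlapped in both populations. The log2 fold changes of 0.70 (SE 0.64, adjusted p = 0.514) and 0.35 (SE 0.60, adjusted p = 0.742) in LGR5- and LGR5+ cells did not pass edgeR's test, and the interval in LGR5- cells, -0.66 to 2.06, held changes in either direction.

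Il33, a nuclear alarmin read by the receptor Il1rl1 (chr19:29925114-29960718, + strand), was the best-counted member, at 1033 to 3274 reads per library. It stood at 63.9, 60.0 and 60.0 CPM in untreated LGR5- cells and 59.6, 80.5 and 86.3 CPM in untreated LGR5+ cells. After 5-FU the levels were 130, 134 and 90.3 CPM in LGR5- cells and 184, 156 and 188 CPM in LGR5+ cells. In each population every treated library exceeded every untreated one, and the lowest treated library was LGR5- replicate 3. Without TMM scaling that library, at 89.6 CPM, lay below untreated LGR5+ replicate 3 at 91.4 CPM. Il33 rose 1.92-fold in LGR5- cells (95% interval 1.44 to 2.57, log2 fold change 0.94, SE 0.20, adjusted p = 0.00511) and 2.33-fold in LGR5+ cells (1.74 to 3.12, log2 fold change 1.22, SE 0.20, adjusted p = 7.43e-04).

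Il1a, the other alarmin (chr2:129299610-129309972, - strand, overlapped on the other strand by Gm14023), did not pass the filter on low counts. It had 0, 1 and 0 reads in each of the untreated groups, 4, 0 and 2 reads in 5-FU LGR5- cells and 7, 0 and 5 reads in 5-FU LGR5+ cells. Replicate 2 of both treated groups held no read, which allows a level of up to 3 reads. Summed over 3 libraries, 12 reads after 5-FU against 1 untreated gave a ratio of 10.7 in LGR5+ cells (exact 95% counting interval 1.59 to 458), and 6 reads against 1 gave 6.76 in LGR5- cells (0.821 to 311). These intervals cover counting error only.

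Lif, an interleukin-6 family cytokine (chr11:4257557-4272514, + strand), had the smallest adjusted p of the members in both populations. It stood at 5.63, 4.06 and 4.27 CPM in untreated LGR5- cells and 5.42, 6.63 and 4.83 CPM in untreated LGR5+ cells. After 5-FU it stood at 11.8, 14.2 and 13.6 CPM in LGR5- cells and 19.5, 22.2 and 17.5 CPM in LGR5+ cells. In each population these values lay above the untreated ones. Lif rose 2.84-fold in LGR5- cells (95% interval 2.08 to 3.87, log2 fold change 1.505, SE 0.21, adjusted p = 3.14e-04) and 3.50-fold in LGR5+ cells (2.58 to 4.77, log2 fold change 1.81, SE 0.21, adjusted p = 4.54e-05) by edgeR's test.

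Tslp was counted by 5 to 32 reads per library, and an antisense gene overlaps it. Its levels were 0.666, 0.274 and 0.554 CPM in untreated LGR5- cells and 1.12, 0.702 and 1.47 CPM after 5-FU, groups that did not overlap. In LGR5+ cells they were 0.808, 0.430 and 1.25 CPM untreated and 1.01, 1.76 and 0.935 CPM after 5-FU, which overlapped. The log2 fold changes of 1.12 (SE 0.55, adjusted p = 0.195) and 0.57 (SE 0.52, adjusted p = 0.513) did not pass edgeR's test.

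Counted over the list, 3 of the 9 tested members were called higher with 5-FU in LGR5+ cells and none lower, where 9.66% of the 16157 genes tested were called higher and 6.37% lower. In LGR5- cells 4 of 9 were called higher and none lower, where 8.3% of all genes were called higher and 7.11% lower. DESeq2 called 3 and 5 members higher. The median log2 fold change of the tested members was 1.05 in LGR5+ and 1.12 in LGR5- cells, against -0.02 and -0.05 over all genes tested. Because the members and the lists below were chosen with earlier results of these data known, such comparisons describe them and are not independent evidence of enrichment. The study's methods set thresholds of 0.05 on p and 1.5 on the size of the log fold change without naming an adjustment or a base, and read as an unadjusted p and log2 they were met by Lif and Csf1 in LGR5+ cells (and by 4.42% of genes in the higher direction) and by Lif and Ccl20 in LGR5- cells (4.25%). Lif, at 1.505, and Cxcl1, at 1.49, lay on either side of that fold threshold in LGR5- cells. These counts of 2 became 4 and 1 without untreated LGR5+ replicate 2 or 3, and in LGR5- cells 1 without untreated LGR5- replicate 3, 3 without untreated LGR5- replicate 1 or 2 or 5-FU LGR5- replicate 1, and 0 without both LGR5- replicate 3 libraries. Treated and untreated libraries did not overlap for 3 members in LGR5+ cells, where 22.3% of genes rose without overlap, and for 6 members in LGR5- cells, where 13.7% did. With 3 libraries against 3, the two-sided exact permutation test of CPM cannot go below p = 0.1, the value each of these members reached.

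**Figure D3:**
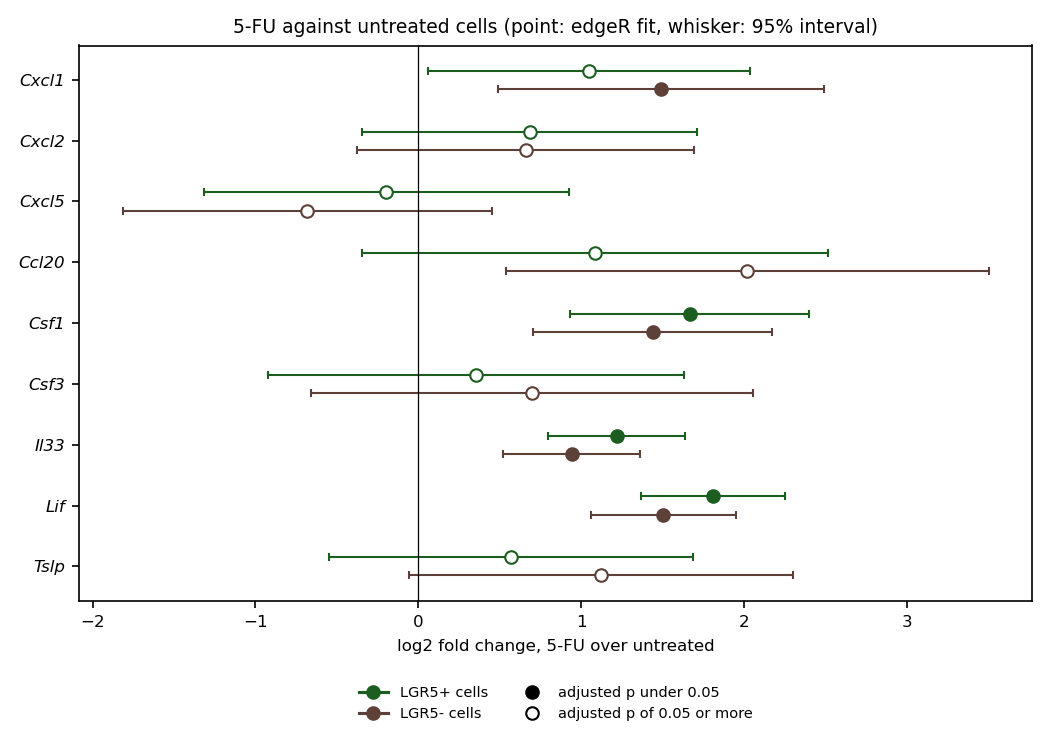
Log2 fold change of the 9 tested genes with 5-FU over untreated cells; points are edgeR estimates, whiskers 95% intervals, and filled points have an adjusted p under 0.05 over all genes tested. Lif, Il33 and Csf1 were filled in both populations and Cxcl1 in LGR5- cells.

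Promoter sequences are shown for the members that hold a match to the kB motif, the site bound by NF-kB proteins, since this group includes Cxcl1, Csf1 and Lif, which were called higher, and Cxcl2 and Ccl20, which were not. RefSeq start windows on GRCm38.p6 matched 7 of the 10 members, with 8 windows in all because Il33 has 2. In the 250 bases before the start, on both strands, the kB motif of 10 letters matched in 5 of the 8 member windows and in 7.25% of 32851 windows of all genes. The AP-1 motif TGANTCA matched in 2 member windows, those of Il1a and Lif, and in 6.75% of all windows. Each sequence runs 5′ to 3′ on the gene's strand from 20 bases before the first match up to the base before the GENCODE M21 gene start, and capitals mark the kB matches and, in Lif, also the AP-1 match upstream of it.
Cxcl1, chr5:90891154-90891240 (+ strand): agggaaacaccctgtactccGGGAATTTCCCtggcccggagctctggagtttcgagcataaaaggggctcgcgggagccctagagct
Cxcl2, chr5:90903782-90903870 (+ strand): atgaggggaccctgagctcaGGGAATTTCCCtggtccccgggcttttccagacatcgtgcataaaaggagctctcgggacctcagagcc
Ccl20, chr1:83116666-83116765 (+ strand): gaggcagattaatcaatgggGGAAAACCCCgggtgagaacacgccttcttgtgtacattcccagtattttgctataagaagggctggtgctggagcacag
Csf1, chr3:107760470-107760643 (- strand): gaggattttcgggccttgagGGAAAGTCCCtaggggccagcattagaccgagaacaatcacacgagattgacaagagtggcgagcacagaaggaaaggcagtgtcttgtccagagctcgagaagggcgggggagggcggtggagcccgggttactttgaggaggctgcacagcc
Lif, chr11:4257320-4257556 (+ strand): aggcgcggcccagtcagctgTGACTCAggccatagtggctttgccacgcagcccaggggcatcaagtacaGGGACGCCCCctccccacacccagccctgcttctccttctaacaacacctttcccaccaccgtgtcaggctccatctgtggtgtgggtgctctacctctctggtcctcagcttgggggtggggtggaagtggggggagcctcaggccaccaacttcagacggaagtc
Cxcl1 and Cxcl2 carried the same 11 bases, GGGAATTTCCC, in which a match on each strand overlaps, 71 and 97 bases before their RefSeq starts. Distances are counted from the RefSeq start, which in Cxcl1, Cxcl2 and Lif lies further downstream than the GENCODE start. The match lay 80 bases before the RefSeq start in Ccl20, 154 in Csf1 and 178 in Lif, where AP-1 letters stood at 228. Il33 held no kB match in its windows. A match describes letters and does not show binding.

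LGR5+ and LGR5- cells were compared next, which asks whether the sorted populations express these factors differently. In untreated cells no member was called, nor was any of the 16157 genes (0% by edgeR and none by DESeq2, with 214 genes, 1.32%, at an unadjusted p under 0.05, of which no member). The sorted groups overlapped for every member, while 2.72% of genes were higher in LGR5+ cells without overlap. The fitted log2 differences, LGR5+ over LGR5-, ran from -0.01 for Cxcl5 to 0.92 for Csf3. The 95% interval was -0.12 to 0.72 for Il33, -0.17 to 0.73 for Lif and -0.73 to 0.76 for Csf1. That of Csf3 was wider, at -0.43 to 2.27.

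After 5-FU no member was called either, again with 0% of genes called by edgeR, though 2095 genes (13%) reached an unadjusted p under 0.05 and DESeq2 called 64 genes higher and 28 lower, none of them a member. Il33 and Lif were the members at an unadjusted p under 0.05. Il33 averaged 176 ± 17.6 CPM (SD, n = 3) in LGR5+ and 118 ± 24.0 CPM in LGR5- cells, a log2 difference of 0.58 (95% interval 0.16 to 0.99, edgeR unadjusted p = 0.00996, adjusted p = 0.348). Lif averaged 19.7 ± 2.38 CPM in LGR5+ and 13.2 ± 1.23 CPM in LGR5- cells, a log2 difference of 0.58 (0.15 to 1.01, edgeR unadjusted p = 0.0111, adjusted p = 0.348). The groups did not overlap for these members, which held for 14.2% of all genes in that direction. Without 5-FU LGR5- replicate 3, the library with the high mitochondrial share, the difference in Il33 was 0.38 (adjusted p = 0.878) and that in Lif 0.57 (adjusted p = 0.878). Cxcl1 and Cxcl2 had differences of 0.01 (95% interval -0.96 to 0.98) and 0.07 (-0.94 to 1.09).

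**Figure D4:**
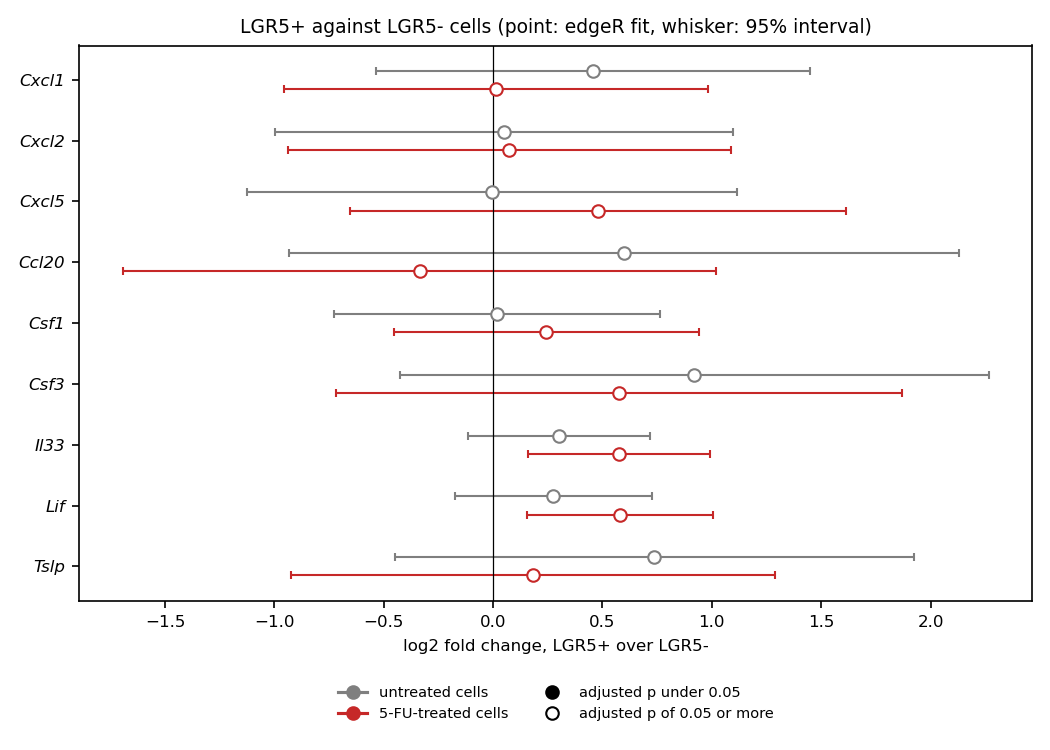
Log2 fold change of the 9 tested genes, LGR5+ over LGR5- cells, untreated and after 5-FU; points are edgeR estimates and whiskers 95% intervals. Every point is open, as no adjusted p was under 0.05, and the intervals of Il33 and Lif after 5-FU lay above 0.

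The difference between the 5-FU responses of LGR5+ and LGR5- cells was tested directly. No member passed (adjusted p = 0.9998 for each of the 9 by edgeR), none had an unadjusted p under 0.05, and 0% of all genes were called, by DESeq2 as well, with 254 genes (1.57%) at an unadjusted p under 0.05. The log2 difference in response, LGR5+ minus LGR5-, was 0.30 for Lif (95% interval -0.31 to 0.92), 0.28 for Il33 (-0.31 to 0.86), 0.23 for Csf1 (-0.80 to 1.25) and -0.44 for Cxcl1 (-1.83 to 0.94). The response of Cxcl1 was thus called in LGR5- cells but was not shown to differ between the populations.

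The cognate receptors were counted in the same libraries. Of 14 receptor genes, 6 passed the filter and none was called with 5-FU in either population (0 of 6 by edgeR, 1 at an unadjusted p under 0.05, in LGR5- cells). Over all genes tested, 16% were called in either direction in LGR5+ cells and 15.4% in LGR5- cells. In untreated and 5-FU cells respectively, the IL-1 receptor Il1r1 averaged 34.8 ± 5.59 and 25.9 ± 6.86 CPM (SD, n = 3) in LGR5- cells and 37.3 ± 0.693 and 30.5 ± 4.56 CPM in LGR5+ cells. Its partner Il1rap averaged 4.67 ± 1.74 and 5.67 ± 0.383 CPM in LGR5- cells and 5.27 ± 0.909 and 7.31 ± 0.477 CPM in LGR5+ cells. Lifr, which binds Lif, averaged 17.4 ± 2.37 and 15.3 ± 2.02 CPM in LGR5- cells and 14.2 ± 1.41 and 14.5 ± 1.35 CPM in LGR5+ cells. Both chains of the Lif receptor were detected in the same bulk libraries as Lif, since the signal-transducing Il6st averaged 15.6 to 17.4 CPM over the groups. Crlf2, the Tslp receptor chain, averaged 11.2 ± 2.13 and 17.3 ± 4.40 CPM in LGR5- cells and 12.4 ± 3.19 and 15.8 ± 3.59 CPM in LGR5+ cells. Cxcr2 was low, averaging 0.715 ± 0.246, 0.793 ± 0.0748, 0.552 ± 0.226 and 1.25 ± 0.338 CPM in untreated LGR5-, untreated LGR5+, 5-FU LGR5- and 5-FU LGR5+ cells. The remaining receptors did not pass the filter. Ccr6 and Csf3r had no read in any library, and Il1rl1, Csf1r and Il7r had at most 5, 11 and 1 reads.

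Other chemokines and cytokines showed calls in the higher direction, where 9.66% of all genes tested were called higher in LGR5+ cells and 8.3% in LGR5- cells. Of 22 other chemokines, 12 were tested, 5 were called higher in LGR5+ and 4 in LGR5- cells and none lower, with median log2 fold changes of 0.60 and 0.49. Cxcl16, a transmembrane chemokine, rose from 27.9 ± 4.27 to 128 ± 22.8 CPM in LGR5+ cells (log2 fold change 2.19, SE 0.20, adjusted p = 7.39e-06 by edgeR) and from 29.5 ± 4.62 to 95.3 ± 12.1 CPM in LGR5- cells (1.69, SE 0.20, adjusted p = 8.91e-05). Cxcl17, a mucosal chemokine, rose by log2 fold changes of 3.05 and 2.84 in LGR5+ and LGR5- cells, and Ppbp, another ELR chemokine, by 3.38 and 2.66. The chemokine counts were 3 in LGR5+ cells without untreated LGR5+ replicate 1 or 5-FU LGR5+ replicate 1 or 3, and 2 in LGR5- cells without untreated LGR5- replicate 1 or 2 or 5-FU LGR5- replicate 1. Of 31 other cytokines 14 were tested, and 6 and 5 were called higher and none lower, with medians of 0.96 and 0.92. Among them Il18 rose by 1.45 and 1.38, Il15, which sustains natural killer cells, by 1.60 and 1.60, and Csf2, the myeloid growth factor GM-CSF, by 1.90 and 1.92. The classical inflammatory cytokines Il6 and Il1b had at most 3 and 4 reads per library.

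Genes of the pathways around the members were counted from lists, beside 9.66% of all genes tested called higher in LGR5+ and 8.3% in LGR5- cells. All 20 NF-kB components and feedback targets were tested, and 9 were called higher in LGR5+ cells and 4 in LGR5- cells, with medians of 0.66 and 0.55. Icam1, an adhesion molecule induced by NF-kB, rose by log2 fold changes of 2.07 (SE 0.21, edgeR adjusted p = 1.70e-05) and 1.44 (SE 0.21, adjusted p = 3.89e-04), Relb by 1.24 and 1.04, and Rela, the p65 subunit, by 1.16 and 0.81. The count in LGR5+ cells was 5 without 5-FU LGR5+ replicate 2, and that in LGR5- cells was 7 without 5-FU LGR5- replicate 3 and 7 with the replicate number as a block. Of 19 genes of IL-1 and alarmin processing and STAT3 feedback, 6 and 5 were called higher, with medians of 0.63 and 0.08. Casp1, the protease that matures Il18, rose by 1.995 and 1.58, Casp4, another inflammatory caspase, by 1.14 and 1.17, Capn2, a calpain, by 0.86 and 0.58, and the IL-1 receptor antagonist Il1rn, also counted among the cytokines, by 2.82 and 2.60. In LGR5- cells this count was 3 without untreated LGR5- replicate 1 or 3 or 5-FU LGR5- replicate 2, and 2 without untreated LGR5- replicate 2.

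Of 30 other senescence-linked secreted factors and marks, 21 were tested. In LGR5+ cells 10 were called higher and 5 lower, in LGR5- cells 8 higher and 6 lower, with medians of 0.36 and 0.28. Serpine2, a protease inhibitor, rose by log2 fold changes of 2.83 and 2.40, Areg, an EGF receptor ligand, by 2.91 and 2.43, and Tnfrsf11b, the decoy receptor osteoprotegerin, by 2.39 and 1.77. The study named some genes of this list, Areg and Plau among them, from these samples, so its direction is not independent evidence. The lower calls in LGR5+ cells numbered 0 to 3 when any 1 library other than 5-FU LGR5+ replicate 1 was left out, and those in LGR5- cells 3 without untreated LGR5- replicate 1 or without 5-FU LGR5- replicate 2 or 3.

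**Figure D5:**
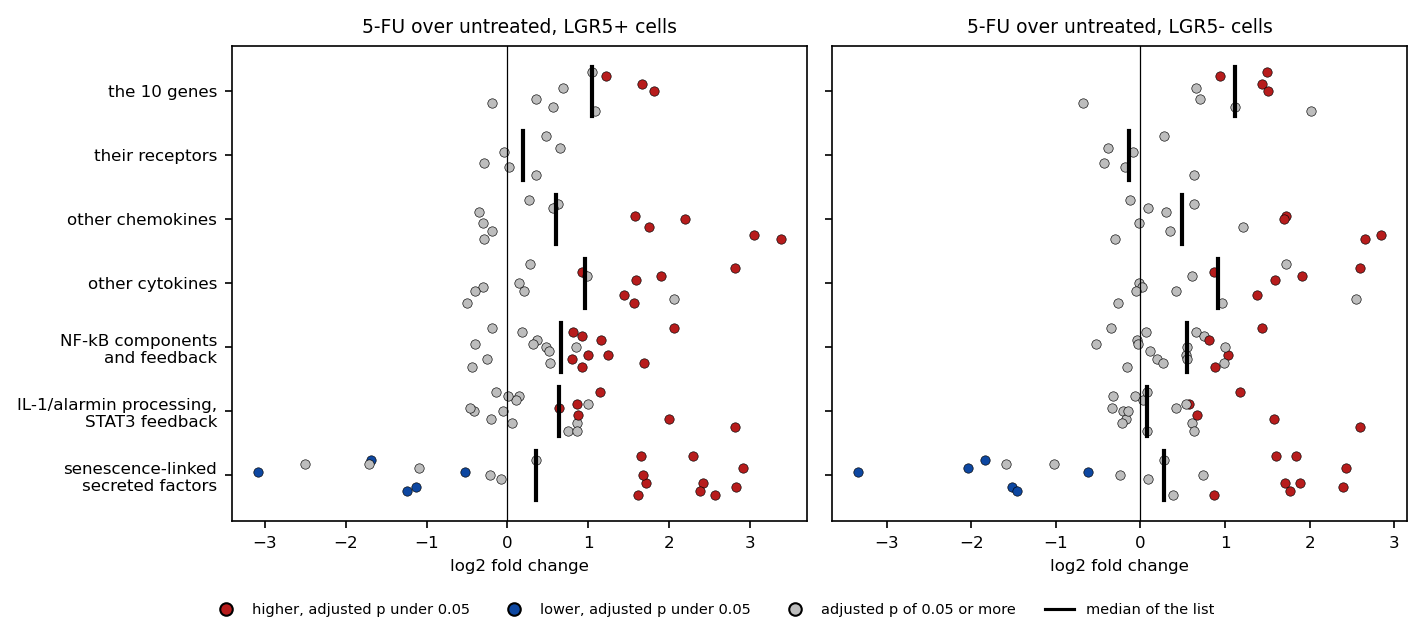
Log2 fold change with 5-FU for each tested gene of the 10 genes, their receptors and 5 further lists, in LGR5+ and LGR5- cells; red points were called higher and blue points lower at an adjusted p under 0.05 (edgeR), and black lines mark medians. Calls outside the senescence list were in the higher direction, and no receptor was called.

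Markers of other cells were set beside these changes. The summed neutrophil list went from 1.31 to 8.26 CPM in the untreated libraries to 8.48 to 51.1 CPM in the 5-FU libraries, led by S100a9, which epithelia also express, while 1 of the 6 listed genes, Csf3r, was at 0 in all 12 libraries. Ly6g, at 2 to 27 reads per library, went from 0.119 to 0.484 CPM to 0.764 to 1.58 CPM, without overlap. S100a8 went from 0.537 to 5.76 CPM to 3.48 to 10.6 CPM, with overlap. Mpo stood at 0.440 to 1.10 CPM over all libraries, and Elane had at most 5 reads. The summed epithelial list moved as well, from 4019 to 5542 CPM untreated to 6730 to 22048 CPM after 5-FU. Its keratins Krt7, Krt8, Krt18 and Krt19 averaged higher after 5-FU in both populations, as did Cdh1 and Cldn4. In LGR5- cells Cldn7 averaged 480 CPM untreated and 493 CPM after 5-FU. Epcam averaged lower after 5-FU in both populations, and in LGR5- cells went from 1244 to 1456 CPM to 673 to 1140 CPM. The macrophage list, led by Cd14, went from 31.8 to 66.0 CPM untreated to 44.8 to 113 CPM after 5-FU, with Clec4f and Marco at 0. In it the lysosomal gene Cd68, which is not restricted to macrophages, went from 5.93 to 13.01 CPM to 16.6 to 52.3 CPM, without overlap. The listed genes Adgre1, Csf1r, C1qa, C1qb, Itgam and Mrc1 had at most 7, 11, 5, 9, 4 and 4 reads in any library. Adgre1, Csf1r, C1qa, C1qb and Itgam averaged lower after 5-FU in LGR5+ cells and higher in LGR5- cells, and Mrc1 averaged higher in both. The fibroblast list summed to 27.9 to 61.8 CPM, led by Dcn at 23.6 to 58.5 CPM. In it Pdgfrb stood at 1.61 to 7.46 CPM, Col1a1 at no more than 0.610 CPM, and Lum at 0. The endothelial list summed to 1.67 to 4.11 CPM, led by Kdr at 1.64 to 3.88 CPM. The part of these cells in the changes of the members was not tested.

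The genes whose log2 CPM followed each member most closely over the 12 libraries were listed as a description, in which the libraries share treatment and depth. Cxcl1 was closest to Csf2 (Pearson r = 0.927), Cxcl2 (0.920) and Slc26a9 (0.920), and Ccl20 to Cxcl1 (0.915). Il33 was closest to Serinc2 (0.990) and Csf1 to Flna (0.986), the actin crosslinker filamin A, and Procr was among the 3 genes most like Lif (0.983). Cxcl5 was closest to the surfactant gene Sftpb (0.896), Csf3 to Polr3b (0.905) and Tslp to Sgms1 (0.929). The chemokines Cxcl1, Cxcl2 and Ccl20 thus varied together across libraries, and Cxcl5 followed other genes.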

How the data were processed

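RNA from 12 sorted samples was amplified with a SMART-type kit, and paired-end libraries were sequenced. The authors deposited 1 table of raw counts of reads per Ensembl gene, without normalization. The submitters' processing notes name HISAT2, HISAT, TopHat2 and HTSeq, without roles, and the build mm8. GRCm38 positions and exon lengths (GENCODE M21) therefore come from a reference other than the build named there. Whether counting used strand is not given in the sources used here. Of 47069 identifiers, 46488 matched a symbol. Amplified reads are not independent molecules, so intervals on reads cover counting error only.

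Counts were filtered by filterByExpr (16157 genes kept), scaled by TMM and fitted on 4 group means over all 12 libraries with edgeR 4.0.16 in R 4.3.3 (glmQLFit, robust, and glmQLFTest). A call is a Benjamini-Hochberg adjusted p under 0.05 over all genes tested. SE is the size of the log2 fold change divided by the square root of F. The fit was tested on simulated data. DESeq2 1.42.0 was an alternative, beside other scalings and filters, fits of only the libraries compared, a replicate block, and libraries left out. Libraries of a group were no copies of each other, with a chi-square per degree of freedom of at least 15.1. Between any 2 libraries the lowest value was 4.42, so the most alike pair lay in different groups.

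Same-numbered LGR5+ and LGR5- libraries deviated together after 5-FU (correlations 0.203 to 0.544, all 3 over 0.1), a pairing read from the data, since the labels name no shared culture. The other comparisons had at least 1 pair under 0.1.

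The 10 members and all lists were chosen with earlier results of these data known. Every member and every tested receptor is given. From each other list at most 3 genes with the smallest p are named per comparison among those called, with the closest genes by Pearson r, of which 1 is not reported here. Il6, Il1b, Tnf and Plau were named after their values were seen. Promoter windows came from RefSeq on GRCm38.p6.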

Additional observations from a re-analysis of the deposited data

How the results depend on the processing

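The calls of Lif, Il33 and Csf1 with 5-FU held in both populations under all 15 alternatives, with log2 fold changes of 1.71 to 1.94, 1.07 to 1.33 and 1.39 to 1.89 in LGR5+ cells and 1.42 to 1.66, 0.84 to 1.14 and 1.15 to 1.62 in LGR5- cells. The highest adjusted p was 0.0484, for Csf1 in LGR5- cells fitted with only the libraries compared. Cxcl1 in LGR5- cells kept its call in 7 of 15 alternatives (0.89 to 1.80) and lost it also with no filter on low counts (adjusted p = 0.184) and without both untreated replicate 3 libraries (0.0579). Members called higher numbered 3 to 4 in LGR5+ and 3 to 5 in LGR5- cells, and 1 member, Cxcl5, was called lower in LGR5- cells without both untreated replicate 3 libraries. The cause was not tested. Of 105 alternative values of called members none changed sign, and 56 of 600 values of uncalled members did. With the replicate number as a block, no call of a member changed: Cxcl1 in LGR5- cells had an adjusted p of 0.0449, and Il33 and Lif between the 5-FU populations each had 0.238. The block tied same-numbered libraries of all 4 groups, so it was not a paired test of the 5-FU populations alone. Over all genes, called genes numbered 1000 to 2424 higher (1561 as reported) and 383 to 1990 lower (1029) in LGR5+ cells, and 741 to 1801 higher (1341) and 527 to 1619 lower (1148) in LGR5- cells. Between the 5-FU populations 0 genes became 10 higher and 1 lower with no filter. Calls in the higher direction in LGR5+ and LGR5- cells ranged over 2 to 5 and 1 to 5 other chemokines, 4 to 9 and 4 to 7 other cytokines, 5 to 11 and 2 to 9 NF-kB genes, 4 to 8 and 2 to 5 IL-1 and alarmin genes and 9 to 10 and 7 to 8 senescence genes, with 0 to 7 and 3 to 6 senescence genes lower. Either gene length put Il33 at rank 1, Lif at rank 4 and Il1a at rank 10. Members past the unadjusted p and fold thresholds numbered 1 to 4 in LGR5+ and 0 to 3 in LGR5- cells. Ccl20, Csf3, Tslp and Il1a were counted by at most 42 reads in any library, which limits their precision beside the spread between replicates.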
